A study of Boehmeria nivea with 12 samples.

Results

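The 100 most abundant unigenes of ramie stems were described, out of 66881 unigenes in the deposited expression table. A unigene is a transcript cluster built from the sequencing reads themselves, and its level was given as FPKM, the fragments counted relative to the length of the transcript and to the number of mapped fragments in the library. The members were chosen by measured values, as the 100 unigenes with the highest mean FPKM over all 12 libraries. That mean used no group label and gave each group of 3 libraries the same weight, but it was a measured value, so the high levels of the members are a description and not a finding. Among the 66881 unigenes, 65477 had an FPKM above 0 in at least 1 library, and the members made up 0.150% of all unigenes listed. The identifiers carry no gene names, so no member is given a role here, and the stem tissue was not checked against marker genes. The identifiers begin with TRINITY_ in the table (TRINITY_DN36873_c0_g2), and this prefix is left out hereafter.

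The study compared stems of ramie with and without water culture in 2 cultivars, of which Zhongzhu No 2 is called Z2 and Huazhu No 4 (Huangzhu No 4 in the labels) is called H4, in 12 RNA-seq libraries of 3 per group. The Z2T and H4T groups were cut branches that had stood in tap water for 10 days, of which the submerged stem with root primordia was taken. The Z2CK and H4CK groups were stems cut from mother plants and not placed in water. All plants grew in a greenhouse, and each library pooled 5 plants, so an effect of water and an effect of cutting with 10 days of standing cannot be told apart. Whether the replicates were separate batches of plants was not stated beyond this pooling, and p-values measure the spread between these libraries.

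Ramie (Boehmeria nivea) is a bast fibre crop of the nettle family that is propagated from cuttings, and a cutting has to form adventitious roots, which arise from stem tissue and not from an existing root. In most tissues a small set of transcripts takes up a large part of the messenger RNA, and in green plant tissue this set commonly includes transcripts for photosynthesis, for protein synthesis and for proteins that respond to water and stress. FPKM is a relative measure, so a gain in a few very abundant transcripts takes share from all others. Unigenes whose names share the DN number are grouped here as 1 component of the assembly, also where the c number differs, as in DN42471_c4_g1 and DN42471_c6_g2. They may be alleles, splice forms, copies or pieces of 1 gene, and whether their sequences overlap was not checked. Reads can be split between such unigenes, and their single levels are uncertain for that reason.

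The library labelled H4CK1 and the library labelled Z2T1 stood apart from their groups. Pearson correlations between libraries were taken over log2(FPKM + 1) of the 100 members, without subtracting the mean of each member. For H4CK1 they were -0.04 and -0.03 to the other H4CK libraries, but 0.98 to Z2T2 and 0.96 to Z2T3. For Z2T1 they were -0.18 and -0.16 to the other Z2T libraries, but 0.96 to H4CK2 and 0.97 to H4CK3. Among all unigenes, 160 had an FPKM of at least 1 in the 5 other H4 libraries and were listed at 0 in the 5 other Z2 libraries, and 150 of them were at 0 in H4CK1, while 148 were at least 1 in Z2T1. Of the 167 unigenes with the reverse pattern, 155 were at least 1 in H4CK1 and 160 were at 0 in Z2T1. Both libraries therefore went against the cultivar as well as the treatment on their labels. Labels were kept as given, and most results that rest on these libraries are given with all 12 libraries and with the 10 that remain without them. The permutation tests of concentration used all 12 libraries only. Z2CK3 also differed from its group, with a correlation of 0.79 with Z2CK1 and 0.82 with Z2CK2, where Z2CK1 and Z2CK2 had 0.97. The column totals lay between 914642 and 1061225 FPKM, and the read counts behind the values were not used here, so the counting error of single values is unknown.

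The members held 19.6% of the FPKM total averaged over the libraries. Over the single libraries this share ran between 17.3% in Z2CK3 and 21.1% in H4T1, with a mean of 19.6% ± 1.24 (SD, n = 12). By group it was 19.3% ± 0.708 in Z2T, 18.6% ± 1.42 in Z2CK, 20.5% ± 0.499 in H4T and 20.0% ± 1.57 in H4CK (SD, n = 3 each). Without H4CK1 and Z2T1 it was 19.5% ± 0.822 in Z2T and 19.5% ± 1.96 in H4CK (SD, n = 2 each). The libraries of Z2T and Z2CK overlapped in this share, as did those of H4T and H4CK and those of Z2CK and H4CK, but every H4T library (20.1% to 21.1%) was above every Z2T library (18.8% to 20.1%), by a margin of under 0.1 percentage points at the nearest. The 10 highest members held between 5.64% and 7.87% of a library. In the mean over all libraries, the single highest unigene held 1.04% of the summed FPKM, the 10 highest 6.86%, the 50 highest 14.4%, the 200 highest 26.0% and the 1000 highest 46.7%.

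The same concentration was measured on each library's own list, which does not depend on the choice of members. A library's own highest unigene held between 0.974% and 1.66% of its total, its own 10 highest between 6.23% and 9.54%, and its own 100 highest between 18.7% and 23.7%, with a mean of 21.1% ± 1.41 (SD, n = 12). Between 880 unigenes in H4CK2 and 1256 in Z2CK3 were needed to reach 50% of a library's total. The share of the own 100 highest averaged 21.3% ± 0.517 in H4T and 21.8% ± 1.94 in H4CK, a difference of -0.50 percentage points (exact permutation test, two-sided, p = 0.8). It averaged 20.9% ± 0.738 in Z2T and 20.6% ± 2.26 in Z2CK, a difference of 0.30 percentage points (exact permutation test, p = 0.9). These tests of 3 against 3 libraries cannot give a p below 0.1. Without H4CK1 and Z2T1 the share of the own 100 highest averaged 20.6% ± 0.846 in Z2T and 21.8% ± 2.74 in H4CK (SD, n = 2 each).

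Between cultivars, Z2CK was 1.21 percentage points lower than H4CK (exact permutation test, p = 0.6) and Z2T was 0.41 percentage points lower than H4T (p = 0.6 by the same exact test). With labels permuted within cultivar, the difference for water culture over both cultivars was -0.10 percentage points (exact permutation p = 0.89, smallest possible p 0.005), and permuted within treatment, the difference of Z2 minus H4 was -0.81 (exact permutation p = 0.355). Each of the 6 comparisons had a Benjamini-Hochberg adjusted p of 0.9. A difference in concentration was not detectable with these libraries.

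**Figure D1:**
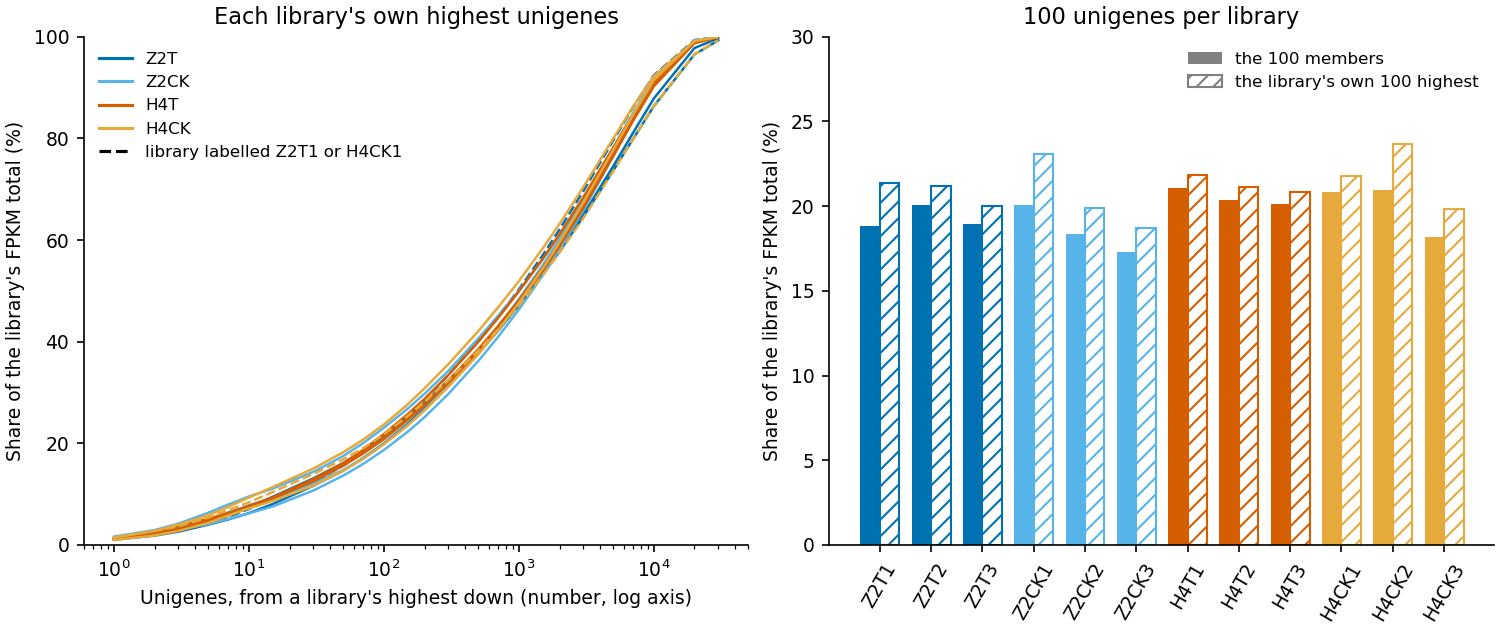
Left: share of a library's FPKM total (%) held by its own highest unigenes, against their number on a log axis, with 1 line per library, coloured by group, dashed for the libraries labelled Z2T1 and H4CK1. Right: share (%) held in each library by the 100 members (filled bars, 17.3% to 21.1%) and by the library's own 100 highest unigenes (hatched bars, 18.7% to 23.7%). The 12 lines lie close together, with H4CK2 highest and Z2CK3 lowest at 100 unigenes.

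There were 5 unigenes that held the first rank in at least 1 library, and all were among the first 7 members. DN36873_c0_g2, first of the list with a mean of 10111 FPKM, had 4679, 12378 and 10803 FPKM in Z2T, 12214, 7690.3 and 10232 in Z2CK, 11698, 8775 and 13889 in H4T, and 13625, 8169 and 7184 in H4CK. It was the highest unigene of Z2T2, Z2T3, H4T1 and H4T3 and was always among the first 10, and its groups overlapped. DN33016_c4_g3, with a mean of 8581 FPKM, had 9309.8, 8815 and 8139 in Z2T, 7151, 9975 and 10888 in Z2CK, 8047, 8933 and 7391 in H4T, and 8896, 7859 and 7572 in H4CK. This member stayed between ranks 1 and 7. DN37979_c0_g1, with a mean of 8063 FPKM, had 11642, 4090.1 and 3759.9 in Z2T, 15845, 10576 and 3869 in Z2CK, 9788, 5238 and 10882 in H4T, and 3682, 9430.2 and 7957 in H4CK. Its levels were uneven within each group, and it was first in Z2T1, Z2CK1 and Z2CK2 but only at rank 15 in H4CK1.

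The steadiest of the highest members was DN40289_c0_g1. It had 7659, 6841 and 6608 FPKM in Z2T, 6084, 8113 and 7837 in Z2CK, 7176, 7808 and 7338 in H4T, and 7013, 6759.6 and 6543 in H4CK. It kept a rank between 3 and 8 in all 12 libraries, including Z2T1 and H4CK1, and its highest group mean was 1.10 times its lowest. DN34517_c2_g1 had the same ratio of 1.10 at a lower level, with a range between 862 and 1529 FPKM, but in the 10 libraries its ratio was 1.45, against 1.12 for DN40289_c0_g1. DN36906_c3_g2, DN35301_c1_g3 and DN33016_c4_g3 completed the 5 narrowest ratios between group means over all 12 libraries, the last of them with a ratio of 1.15. In H4T vs. H4CK the log2 difference of DN36906_c3_g2 was 0.22 with all 12 libraries and 0.45 in the 10. That of DN35301_c1_g3 was 0.20 and 0.45, and that of DN33016_c4_g3 was 0.00 and 0.07.

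The pair DN42495_c13_g1 and DN33630_c3_g1 moved as a unit, although they come from separate components. DN42495_c13_g1 had 6157, 4703 and 4191 FPKM in Z2T, 12116, 8866 and 4889 in Z2CK, 6206, 6475 and 3898 in H4T, and 5352, 13889 and 8907 in H4CK. DN33630_c3_g1 lay just under it in each library, with DN42495_c13_g1 between 1.04 and 1.16 times as high, and the correlation of their log2 levels over the 12 libraries was 0.998. DN35989_c0_g1, the seventh member, had ranks between 1 and 401 and is described with the water culture results. DN42495_c13_g3, of the same component, was 11th in the list, and DN42495_c13_g1 was between 1.01 and 2.67 times as high (correlation 0.874). DN41429_c0_g3 (mean 4778 FPKM), DN42418_c4_g2 (4306 FPKM) and DN41899_c4_g2 (4171 FPKM) closed the first 10.

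At the other end, the last 5 members were DN40866_c7_g1 (mean 819.7 FPKM), DN41151_c1_g1 (817.5), DN40678_c2_g1 (816.2), DN38209_c0_g2 (807.1) and DN40281_c0_g1 (801.6). The next 5 unigenes, just outside the list, were DN35864_c0_g2 (797.2 FPKM), DN40185_c1_g4 (794.9), DN39381_c2_g1 (790.8), DN37295_c2_g1 (762.9) and DN41780_c1_g2 (749.8). The edge of the list is thus not a gap in abundance. Of the members, 92 were also among the 100 highest by the median over libraries, and 99 were among the 100 highest by the mean over the 10 libraries, the exception being DN41151_c1_g1. Outside the median list were DN33003_c3_g1, DN33350_c2_g5, DN34438_c0_g2, DN36160_c1_g1, DN37645_c0_g3, DN39449_c1_g2, DN41095_c3_g2 and DN42156_c0_g4. A mean can be raised by high values in part of the libraries, and such values helped to place these members in the list. Several of them are described below for large differences between groups, and those differences are not independent of the choice of the list.

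Membership in a library's own 100 highest was less even than the shares. Between 64 members in Z2CK1 and 85 in H4T3 were among the own 100 highest, with 84, 84 and 85 in the 3 H4T libraries, and between 82 and 95 were among the own 200 highest. In every library, 32 members were among the own 100 highest (34 over the 10 libraries), and 67 were never below rank 200. At the other extreme, 24 members were among the own 100 highest of at most 6 libraries and 13 were below rank 1000 at least once. The ratio of highest to lowest library was under 2 for 25 members and at least 10 for 19, and 1 member, DN41937_c0_g3, was listed at 0 in some libraries.

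By group mean, 92 members were among the 100 highest of Z2T, 73 of Z2CK, 86 of H4T and 88 of H4CK, and 58 were among the 100 highest of all 4 groups. Without H4CK1 and Z2T1 these numbers were 81, 73, 86 and 69, and 43 members were shared by all 4 groups. The 100 highest unigenes of Z2T and Z2CK had 71 in common with all libraries and 61 without the 2 libraries, and those of H4T and H4CK had 76 and 61. Across cultivars, the lists of Z2CK and H4CK shared 71 unigenes (63 without the 2 libraries), and those of Z2T and H4T shared 82 (79 without them). Z2T and H4CK, which differ in both factors on their labels, shared 85 unigenes with all libraries and 52 without H4CK1 and Z2T1.

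**Figure D2:**
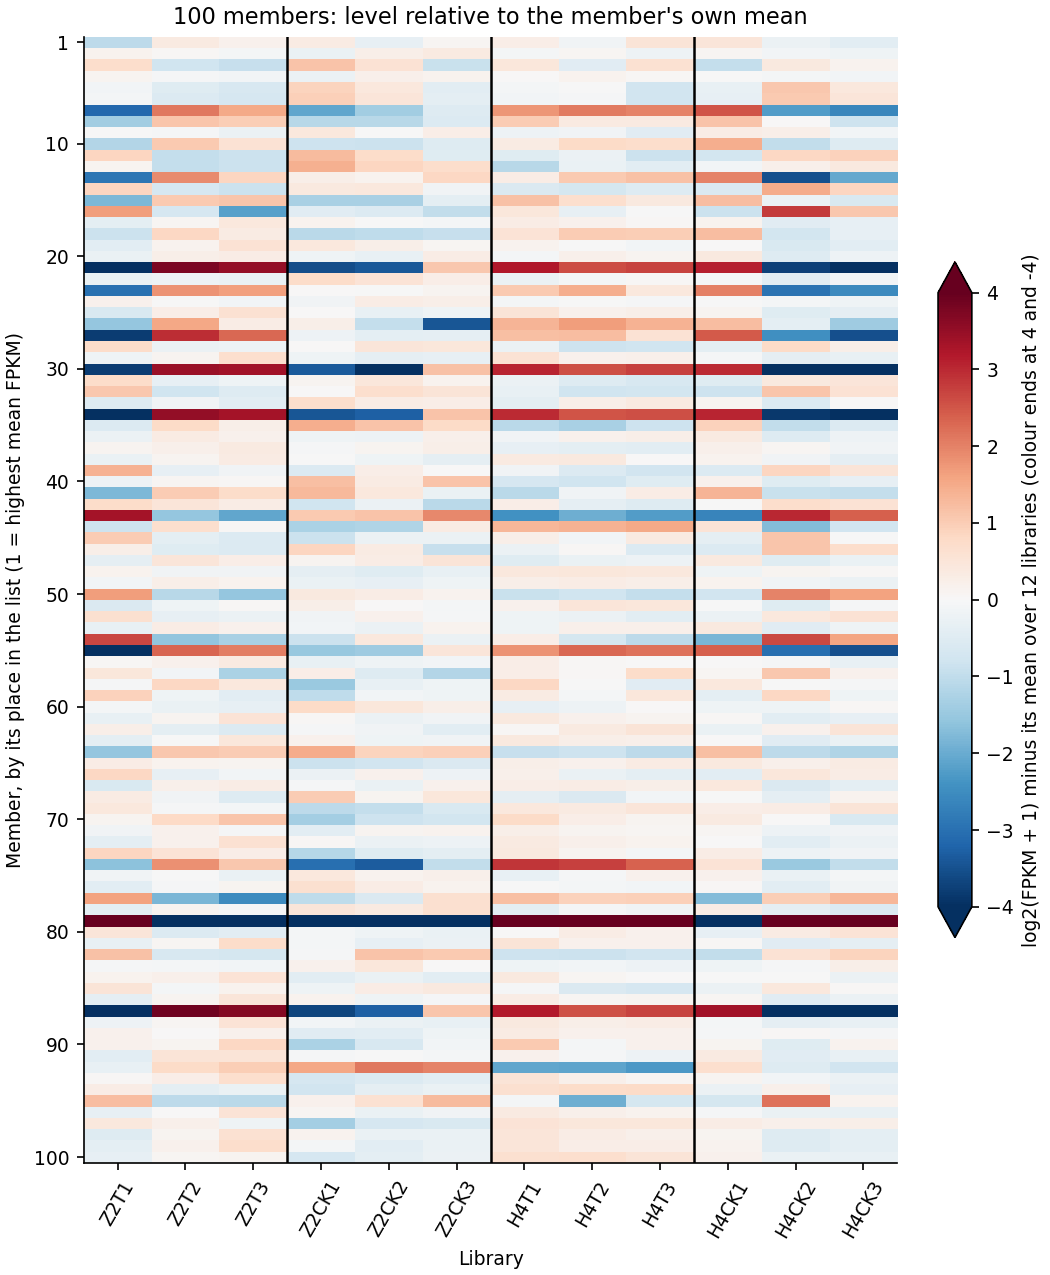
Level of each of the 100 members (down the page, by place in the list) in each of the 12 libraries (across, in the groups Z2T, Z2CK, H4T and H4CK), as log2(FPKM + 1) minus the member's mean over the 12 libraries, red above and blue below, with the colours ending at 4 and -4. H4CK1 has the pattern of Z2T2 and Z2T3, and Z2T1 that of H4CK2 and H4CK3. Member 79, DN41937_c0_g3, is dark blue where it is listed at 0.

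The 100 members came from 90 components, and 9 components held 19 of them. In 7 of the 9 components the log2 levels of the mates had correlations between 0.512 and 0.999 over the 12 libraries, which share the same assembly. DN33016_c4_g3 was between 4.31 and 5.25 times as high as DN33016_c4_g2 in every library, a narrow range for levels of which the lower averaged 1780 FPKM. DN42471_c6_g4, DN42471_c6_g2 and DN42471_c4_g1 had correlations between 0.994 and 0.999, and DN42156_c0_g4 of another component had correlations between 0.994 and 0.999 with the 3 of them.

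DN41899_c4_g2 was between 1.45 and 2.38 times as high as DN41899_c4_g1, with a correlation of 0.956. DN41899_c4_g1 had 1069.8, 3432 and 2427 FPKM in Z2T, 921, 954 and 1024 in Z2CK, 2833, 3955 and 3873 in H4T, and 4599.6, 1160.2 and 1541 in H4CK. The water-cultured libraries were thus above the untreated ones, apart from Z2T1 and H4CK1. DN42413_c3_g1 and DN42413_c3_g2 ran nearly level, with a median ratio of 1.05 and a correlation of 0.973. DN34691_c4_g1 was between 1.01 and 1.33 times as high as DN34691_c4_g2 (correlation 0.964), and the loosest of the 7 components was DN34419, in which DN34419_c2_g4 was between 0.553 and 1.63 times as high as DN34419_c2_g8 (correlation 0.512).

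The 2 exceptions were DN41815 and DN41937. DN41815_c1_g1 had 1327, 1189.6 and 1156 FPKM in Z2T, 597, 632 and 725 in Z2CK, 1251, 1212 and 1337 in H4T, and 1396, 1240.0 and 1347 in H4CK, so it was low in the Z2CK libraries and level elsewhere. Its component mate DN41815_c1_g3 had 1066, 1315 and 1133 FPKM in Z2CK and was highest in Z2T1 with 1811 FPKM, and the correlation between the mates was 0.054. In Z2T vs. Z2CK, DN41815_c1_g1 had the lowest adjusted p of the members with all 12 libraries, with a log2 difference of 0.91 (limma adjusted p = 0.0336). Instead, DN41815_c1_g1 had a correlation of 0.97 with DN34419_c2_g4, which had 493, 532 and 661 FPKM in Z2CK and between 961 and 1451 FPKM in the other 9 libraries. Among all 4950 pairs of members, 17 had a correlation of at least 0.98, of which 3 lay within a component, 70 had at least 0.95, and 302 had -0.8 or less. These correlations include the libraries labelled H4CK1 and Z2T1 and describe the 12 libraries only.

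Water culture was compared within each cultivar with limma on log2(FPKM + 1), fitted on the 27628 unigenes that reached 1 FPKM in 3 or more libraries. A unigene was called where the adjusted p was below 0.001 and the log2 fold change was 2 or more in either direction, the stricter of the cut-offs that the study names. All 100 members passed the filter. On this scale a low unigene cannot easily reach a log2 fold change of 2, so members can be called where low unigenes cannot. With all 12 libraries, 0 members were called by limma in H4T vs. H4CK (0.00362% of all unigenes tested), 0 in Z2T vs. Z2CK (0.0109%) and 0 for water culture over both cultivars (0.00362%). At an unadjusted p below 0.05 there were 8 members in H4T vs. H4CK (13.5% of all unigenes), 19 in Z2T vs. Z2CK (18.4%) and 26 over both cultivars (22.6%), which is near the background. In stems as a whole, fewer cells of a type and less RNA per cell cannot be told apart.

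The median log2 difference of the members was 0.20 in H4T vs. H4CK, beside 0.08 over all unigenes tested, and 0.14 in Z2T vs. Z2CK, beside -0.02. These medians moved with the scaling of the libraries, to 0.20, 0.09 and 0.14 in H4T vs. H4CK and to 0.06, 0.21 and 0.02 in Z2T vs. Z2CK on the TPM scale, after median-of-ratios scaling and after quantile normalization, in that order. The median over all unigenes then lay between -0.00 and 0.08 in H4T vs. H4CK and between -0.09 and 0.02 in Z2T vs. Z2CK. A difference of at least 1 in either direction was seen in 19 members in H4T vs. H4CK (12.3% of all unigenes) and in 20 in Z2T vs. Z2CK (15.8%). In 24 members every H4T library was above every H4CK library (13.9% of all unigenes) and in 5 every one was below (6.26%). In 15 members every Z2T library was above every Z2CK library (8.33%) and in 11 below (12.9%). In these libraries 0 members differed without overlap in opposite directions in the cultivars (0.713% of all unigenes were higher in H4T and lower in Z2T, and 0.286% the reverse).

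Higher without overlap in both cultivars were 6 members (2.39% of all unigenes), namely DN33795_c1_g1, DN41836_c2_g1, DN39606_c0_g1, DN34691_c4_g1, DN33404_c3_g2 and DN41151_c1_g1. DN41151_c1_g1 had 1021, 889 and 685 FPKM in Z2T, against 298, 484 and 505 FPKM in Z2CK, and 1113, 1049 and 1045 FPKM in H4T, against 942, 876 and 903 FPKM in H4CK. Its log2 difference over both cultivars was 0.63 (SE 0.16, limma adjusted p = 0.0627), and those of the other 5 lay between 0.30 and 0.45 with limma adjusted p between 0.0937 and 0.222. These were small differences, and none passed the test. Lower without overlap in both cultivars were 3 members (1.9% of all unigenes), DN42418_c4_g2, DN41706_c7_g2 and DN33003_c3_g1. DN41706_c7_g2 had 3545, 1696 and 1813 FPKM in Z2T, against 8855, 5883 and 5319 FPKM in Z2CK, and 1529, 2718 and 2439.5 FPKM in H4T, against 3008, 3796 and 4282 FPKM in H4CK, with a log2 difference over both of -1.16 (SE 0.29, limma adjusted p = 0.0566).

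DN41095_c3_g2 was the only member past an adjusted p of 0.05 with a log2 difference of at least 2 for water culture with all 12 libraries. It had 136, 1524 and 902 FPKM in Z2T, against 52.4, 41.9 and 215 FPKM in Z2CK, and 3100.2, 2848 and 2197 FPKM in H4T, against 631, 151 and 217 FPKM in H4CK. All H4T libraries were above all H4CK libraries, whereas Z2T1 lay below Z2CK3. Over both cultivars its log2 difference was 3.07 (SE 0.64, limma adjusted p = 0.0328), and 3.89 (SE 0.44, limma adjusted p = 0.000355) without H4CK1 and Z2T1, a call kept in 2 of 10 fits that left out a further library. Over the 12 libraries this member also had the widest ratio of highest to lowest group mean, 26.3, among the 99 members other than DN41937_c0_g3.

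Without H4CK1 and Z2T1, limma tested 26261 unigenes, and 10 members were called for water culture over both cultivars, 8 higher (1.9% of all unigenes tested) and 2 lower (0.708%). In H4T vs. H4CK 4 members were called higher (0.575%) and 2 lower (0.362%), and in Z2T vs. Z2CK 1 was called higher (1.04%) and 1 lower (0.24%). The median log2 difference was 0.32 over both cultivars, beside 0.08 over all unigenes (0.22 beside -0.00 as TPM, 0.25 beside 0.02 after median-of-ratios scaling and 0.15 beside -0.04 after quantile normalization), and 73 members had an unadjusted p below 0.05 (43.5%). In these 10 libraries, 52 members were higher without overlap in H4T vs. H4CK (32.9%) and 25 lower (18.2%), and 41 were higher in Z2T vs. Z2CK (25.2%) and 27 lower (23.2%). In both cultivars 35 were higher (15.0%) and 18 lower (10.3%), while DN34834_c4_g1 was higher in H4T and lower in Z2T (2.2%) and DN39488_c3_g2 was lower in H4T and higher in Z2T (0.919%). The fit left 2 libraries each in Z2T and H4CK, and all groups shared 1 estimate of the spread. H4CK1 and Z2T1 stood apart from their groups in the members' own levels, so leaving them out narrowed the spread. For DN34438_c0_g2 the SE over both cultivars was 1.11 with all 12 libraries and 0.22 without them. The p-values of this fit hold only under that choice of libraries. The 6 calls in H4T vs. H4CK were each kept in 2 to 6 of the 10 fits that left out a further library. A fit of all 12 libraries that weighted each by its spread gave H4CK1 and Z2T1 the lowest weights (0.182 and 0.155). In that fit 7 of the 10 calls over both cultivars were kept, while those of DN41131_c1_g2, DN36924_c0_g1 and DN34066_c5_g1 were not. DN42471_c4_g1 was called in addition. In that fit 0 members were called in H4T vs. H4CK alone (0.29% of all unigenes) and 0 in Z2T vs. Z2CK alone (0.268%). The 3 scalings kept 9 of the 10 calls, and DN42471_c6_g2 was lost in 1.

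Of the 8 higher members, 3 belonged to the closely alike set of the DN42471 component and DN42156_c0_g4. DN42471_c6_g4 had 5694 and 4739 FPKM in Z2T2 and Z2T3, against 34.9, 39.0 and 879.9 FPKM in Z2CK, and 3823, 2547 and 2691 FPKM in H4T, against 30.2 and 12.4 FPKM in H4CK2 and H4CK3. The library labelled Z2T1 had 18.8 FPKM and the library labelled H4CK1 had 3626 FPKM, so each lay at the level of the other treatment. The water-cultured libraries other than Z2T1 were all above the untreated ones other than H4CK1, and Z2CK3 lay between. Its ranks were 8 and 8 in Z2T2 and Z2T3, against 5481, 4911 and 88 in Z2CK.

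DN42156_c0_g4 had 2631 and 2297 FPKM in Z2T2 and Z2T3, against 13.1, 17.8 and 386 FPKM in Z2CK, and 1601, 1035 and 1156 FPKM in H4T, against 8.60 and 4.48 FPKM in H4CK2 and H4CK3, with 8.26 FPKM in Z2T1 and 1832 FPKM in H4CK1. Without the 2 libraries the log2 difference over both cultivars was 6.57 (SE 0.85, limma adjusted p = 0.000706) for DN42156_c0_g4, 6.38 (SE 0.85, adjusted p = 0.000819) for DN42471_c6_g4 and 6.06 (SE 0.82, adjusted p = 0.000896) for DN42471_c6_g2. The third unigene of the component, DN42471_c4_g1, had a log2 difference of 6.17 (SE 0.89) and just missed the threshold with a limma adjusted p of 0.00119. With all 12 libraries the 4 had log2 differences between 3.61 and 3.90, with SE between 1.66 and 1.82 and limma adjusted p between 0.212 and 0.233. Leaving out a further library kept the calls of DN42156_c0_g4, DN42471_c6_g4 and DN42471_c6_g2 in 1 of 10 fits, the fit without Z2CK3, and in that fit DN42471_c4_g1 was called too. These 3 calls therefore depend on the particular libraries used. The 4 unigenes also reached the list through the libraries in which they were high. DN42156_c0_g4 had ranks 20 and 24 in Z2T2 and Z2T3 and 39, 68 and 59 in H4T, against 11371, 9417 and 305 in Z2CK. Their p-values use levels that helped to choose them, so they describe these libraries and give no separate support.

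The next higher member, DN35989_c0_g1, had 11568 and 7818 FPKM in Z2T2 and Z2T3, against 634, 1029 and 1895 FPKM in Z2CK, and 9270.5, 11487 and 10635 FPKM in H4T, against 570.4 and 446 FPKM in H4CK2 and H4CK3. Z2T1 had 307 FPKM and H4CK1 15629 FPKM, the highest value of the member. This unigene was at rank 1, 2 or 3 in the other 5 water-cultured libraries and in H4CK1, and between ranks 24 and 401 elsewhere. Without the 2 libraries its log2 difference over both cultivars was 3.76 (SE 0.30, limma adjusted p = 9.53e-05), and it stayed called in all 10 fits that left out a further library. With all 12 libraries the difference was 2.11 (SE 1.07, adjusted p = 0.269).

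DN36924_c0_g1 had 5536 and 3518 FPKM in Z2T2 and Z2T3, against 616, 551 and 552 FPKM in Z2CK, and 1645, 1681 and 1079 FPKM in H4T, against 129.6 and 62.2 FPKM in H4CK2 and H4CK3. The excluded libraries had 50.8 FPKM (Z2T1) and 3922 FPKM (H4CK1). It was the only higher member called in each cultivar alone, with log2 differences of 2.94 in Z2T vs. Z2CK (SE 0.34, limma adjusted p = 0.000989) and 3.99 in H4T vs. H4CK (SE 0.34, adjusted p = 0.000399). Over both cultivars the difference was 3.47 (SE 0.24, adjusted p = 5.65e-05), and this call was kept in all 10 fits without a further library, against 1.49 (adjusted p = 0.507) with all 12 libraries. The call in Z2 alone was kept in 2 of those 10 fits and under 1 of the 3 scalings, and the call in H4 alone in 3 fits and under all 3 scalings.

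DN41131_c1_g2 had 3693 and 3295 FPKM in Z2T2 and Z2T3, against 1076, 1052 and 1142 FPKM in Z2CK, and 2185, 2903 and 1420.3 FPKM in H4T, against 135 and 182 FPKM in H4CK2 and H4CK3. Z2T1 had 132 FPKM and H4CK1 4281 FPKM. The groups of each cultivar did not overlap in these 10 libraries, and the gap was wider in H4, with log2 differences of 1.68 in Z2T vs. Z2CK and 3.72 in H4T vs. H4CK (SE 0.28 each). The interaction of cultivar and water culture was -2.04 on the log2 scale (SE 0.40, limma adjusted p = 0.0709), so the difference between cultivars did not pass the test. Over both cultivars DN41131_c1_g2 had 2.70 (SE 0.20, adjusted p = 7.29e-05), kept in all 10 fits, against 1.12 (adjusted p = 0.535) with all 12 libraries. DN31317_c0_g1 was called as well, with a log2 difference over both cultivars of 4.18 (SE 0.38, adjusted p = 0.000147), kept in 7 of the 10 fits and lost without Z2T2, Z2T3 or H4CK3. Its difference was 2.20 (adjusted p = 0.332) over all 12 libraries. Together the 8 higher members held 3.48% and 2.72% of the FPKM total in Z2T2 and Z2T3, against 0.275%, 0.315% and 0.679% in Z2CK, and 2.64%, 2.78% and 2.41% in H4T, against 0.117% and 0.107% in H4CK2 and H4CK3. They held 0.0749% in Z2T1 and 3.34% in H4CK1.

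In water culture, 2 members were called lower without the 2 libraries. DN34438_c0_g2 had 164 and 112 FPKM in Z2T2 and Z2T3, against 982, 1050.4 and 1816 FPKM in Z2CK, and 88.7, 122 and 100.1 FPKM in H4T, against 3837 and 2512 FPKM in H4CK2 and H4CK3. Z2T1 had 4784 FPKM, the highest value of this member, and H4CK1 had 75.8 FPKM, the lowest. Its log2 difference was -3.18 in Z2T vs. Z2CK (SE 0.32, limma adjusted p = 0.000577), -4.90 in H4T vs. H4CK (SE 0.32, adjusted p = 0.000179) and -4.04 over both (SE 0.22, adjusted p = 2.66e-05), and the last call was kept in all 10 fits without a further library, while the call in Z2 was kept in 1 and that in H4 in 6. In rank it stood at 872 and 1409 in Z2T2 and Z2T3, against 84, 58 and 26 in Z2CK, and at 1876, 1238 and 1616 in H4T, against 13 and 13 in H4CK2 and H4CK3.

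DN34066_c5_g1 had 400.1 and 298 FPKM in Z2T2 and Z2T3, against 1137, 1081 and 963 FPKM in Z2CK, and 466, 502 and 447 FPKM in H4T, against 3442 and 2689 FPKM in H4CK2 and H4CK3. Z2T1 had 2783 FPKM and H4CK1 509 FPKM. Its log2 difference over both cultivars was -2.15 (SE 0.13, limma adjusted p = 3.2e-05), kept in all 10 fits. Both lower members together held 0.0531% and 0.0400% of the FPKM total in Z2T2 and Z2T3, against 0.222%, 0.228% and 0.291% in Z2CK, and 0.0566%, 0.0650% and 0.0566% in H4T, against 0.770% and 0.569% in H4CK2 and H4CK3. With all libraries the log2 differences over both cultivars were -2.29 for DN34438_c0_g2 (limma adjusted p = 0.248) and -1.22 for DN34066_c5_g1 (adjusted p = 0.254).

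The other members with the largest negative differences for water culture did not pass the test. DN33350_c2_g5 had 218 and 266 FPKM in Z2T2 and Z2T3, against 364, 884 and 556 FPKM in Z2CK, and 788, 401 and 319.9 FPKM in H4T, against 4107 and 1969 FPKM in H4CK2 and H4CK3, with 4209 FPKM in Z2T1 and 186 FPKM in H4CK1. In the 10 libraries its log2 difference over both cultivars was -1.92 (SE 0.35, limma adjusted p = 0.00355), and with all 12 it was -0.57 (adjusted p = 0.732). H4CK2 and H4CK3 stood above every other library but Z2T1.

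DN36160_c1_g1 was more even within groups, with 519 and 500.1 FPKM in Z2T2 and Z2T3, against 791, 1777 and 1672 FPKM in Z2CK, and 457, 446 and 479 FPKM in H4T, against 1210.2 and 1492 FPKM in H4CK2 and H4CK3. Z2T1 had 1838 FPKM and H4CK1 414 FPKM, and the log2 difference over both cultivars was -1.46 (SE 0.23, limma adjusted p = 0.0016) without them and -0.87 (adjusted p = 0.246) with them. DN37645_c0_g3 ran between 159 FPKM in H4T2 and 2738 FPKM in H4CK2, and its log2 difference over both cultivars was -1.89 (SE 0.48, limma adjusted p = 0.0157) in the 10 libraries and -1.20 (adjusted p = 0.250) in all 12.

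**Figure D3:**
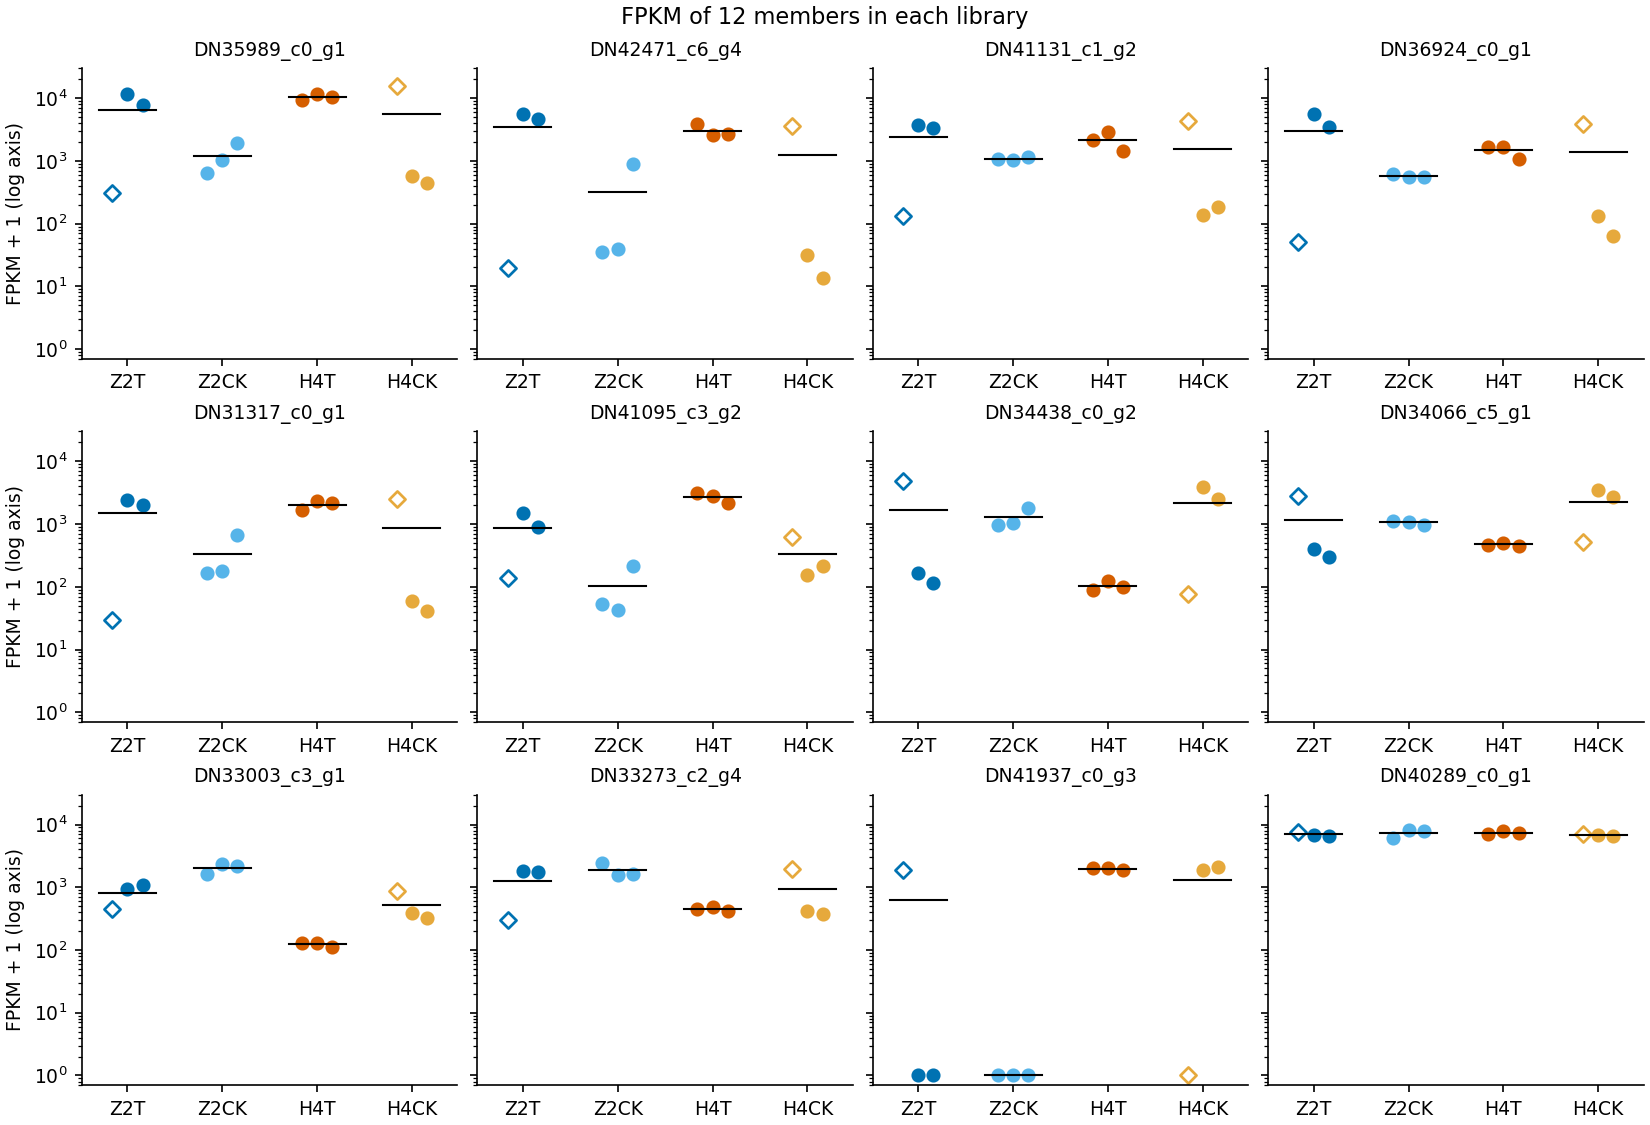
FPKM plus 1 on a log axis of 12 members in the groups Z2T, Z2CK, H4T and H4CK, with 1 point per library, open diamonds for the libraries labelled Z2T1 and H4CK1, and a line at the mean of the 3 libraries of each group. The open diamonds lie apart from the other points of their groups in the panels of the members called for water culture, while DN40289_c0_g1 (last panel) lies between 6084 and 8113 FPKM throughout.

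The effects of water culture were next compared between the cultivars, which share no library. The log2 differences in Z2T vs. Z2CK and H4T vs. H4CK had a Pearson correlation of 0.795 across the 100 members with all 12 libraries, with the same sign in 73, and of 0.921 without H4CK1 and Z2T1, with the same sign in 85. Over all unigenes tested the correlations were 0.375 (27628 unigenes, same sign in 60.2%) and 0.624 (26261 unigenes, 65.5%). The unigenes tested include low ones, whose changes this scale understates. They are not matched to the members in abundance, so the gap between the correlations is not a result about the members. The DN42471 unigenes and DN42156_c0_g4 added to the members' values, which were 0.68 and 0.849 over the 96 members without these 4. Members are not independent of each other, since they share libraries and some share a component. For the interaction, limma called 0 members with all 12 libraries and 0 without the 2 libraries (0.0% of all unigenes in both), and 10 and 16 members had an unadjusted p below 0.05 (10.2% and 17.8% of all unigenes).

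The member with the smallest interaction p in all 12 libraries was DN39488_c3_g2. It had 2026, 1712 and 1504 FPKM in Z2T, against 712, 1034 and 577 FPKM in Z2CK, and 1468, 950.1 and 853 FPKM in H4T, against 1211, 1977 and 1835 FPKM in H4CK. Each Z2T library was above each Z2CK library, while H4T and H4CK overlapped. The interaction was 1.83 on the log2 scale (SE 0.44, limma adjusted p = 0.205), and 1.94 (SE 0.42, adjusted p = 0.0819) without the 2 libraries.

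**Figure D4:**
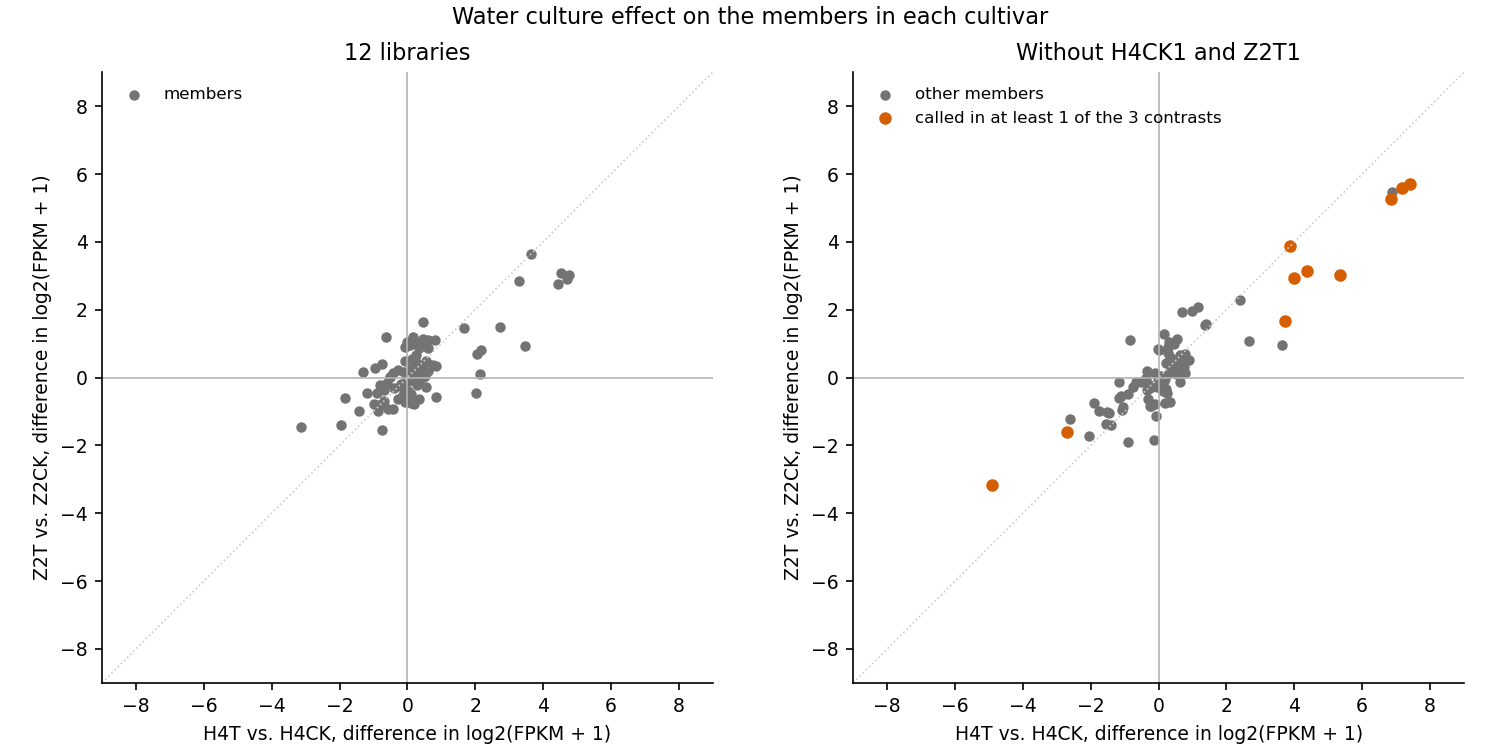
Difference in log2(FPKM + 1) of each member in Z2T vs. Z2CK (vertical axis) against H4T vs. H4CK (horizontal axis), with all 12 libraries (left) and without H4CK1 and Z2T1 (right), where the 10 members called in at least 1 of the 3 water culture contrasts are orange. Each point is a member and the dotted line marks equal differences, and the correlation across members is 0.795 on the left and 0.921 on the right.

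Cultivars were compared in the same fits. With all 12 libraries limma called 0 members in Z2CK vs. H4CK (0.00724% of all unigenes tested), 0 in Z2T vs. H4T (0.00724%) and 0 over both treatments (0.0%), and 14, 13 and 16 members had an unadjusted p below 0.05 (14.9%, 13.2% and 19.1%). The median log2 difference of the members was 0.03 in Z2CK vs. H4CK, beside 0.03 over all unigenes (-0.05 beside -0.03 after median-of-ratios scaling), and -0.10 in Z2T vs. H4T, beside -0.03. In Z2CK vs. H4CK, 9 members were higher without overlap (10.1% of all unigenes) and 12 were lower (6.86%), and in Z2T vs. H4T the counts were 7 higher (6.45%) and 7 lower (13.4%). Higher in Z2 without overlap under both treatments were DN41937_c0_g1 and DN33003_c3_g1 (1.38%), and lower were DN33795_c1_g1 and DN41151_c1_g1 (1.94%). DN39488_c3_g2 was lower in Z2CK and higher in Z2T (0.395%), and 0 members had the reverse pattern (0.814%).

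DN33003_c3_g1 had the clearest cultivar difference among the members. It had 448, 929 and 1078 FPKM in Z2T, against 129.8, 127 and 112 FPKM in H4T, and 1606, 2357 and 2174 FPKM in Z2CK, against 880.1, 384 and 321 FPKM in H4CK. Every Z2 library was above every H4 library of the same treatment, with Z2T1 and H4CK1 included, and within each cultivar every water-cultured library was below every untreated one. Over both treatments its log2 difference was 2.36 (SE 0.29, limma adjusted p = 0.0109) with all 12 libraries and 2.77 (SE 0.13, adjusted p = 2.75e-06) without the 2 libraries. For water culture over both cultivars it was -1.68 (SE 0.29, adjusted p = 0.0190) with all libraries and -1.26 (SE 0.13, adjusted p = 0.000264) without the 2 libraries, short of the fold change threshold. Without the 2 libraries it was called in Z2T vs. H4T, with 3.02, and in Z2CK vs. H4CK, with 2.52 (SE 0.19 each, adjusted p = 3.03e-05 and 7.53e-05), and these calls were kept in 10 and 8 of the 10 fits without a further library, the second being lost without H4CK2 or H4CK3.

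DN41937_c0_g3 divided the libraries most sharply. It was listed at 0 FPKM in Z2T2 and Z2T3, against 2013, 2006 and 1884 FPKM in H4T, and at 0 in Z2CK1, Z2CK2 and Z2CK3, against 1867 and 2111 FPKM in H4CK2 and H4CK3. The library labelled Z2T1 had 1894 FPKM and the library labelled H4CK1 was listed at 0. Since the table holds no counts, no fold change is given against a group at 0. It passed the filter on low values only through the libraries in which it was present, so its calls give no support and no p is given. The presence of this member therefore followed the cultivar label in 10 of the 12 libraries and went against it in the other two.

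The second member of that component, DN41937_c0_g1, was present in all libraries. It had 1049, 1266 and 1241 FPKM in Z2T, against 757, 684 and 854 FPKM in H4T, and 2786, 1522 and 2651 FPKM in Z2CK, against 1349, 850.4 and 948 FPKM in H4CK. Its Z2 libraries were above its H4 libraries under both treatments, with a log2 difference over both of 0.88 (limma adjusted p = 0.0556) and of 1.02 (adjusted p = 0.00479) without the 2 libraries, below the fold change threshold. The sum of both unigenes was 1266 and 1241 FPKM in Z2T2 and Z2T3, against 2770.4, 2690.3 and 2738 FPKM in H4T, and 2786, 1522 and 2651 FPKM in Z2CK, against 2718 and 3059 FPKM in H4CK2 and H4CK3, so in these 10 libraries the sums of Z2CK and H4CK overlapped while those of Z2T and H4T did not. The sum was 2943 FPKM in Z2T1, above every H4T library, and 1349 FPKM in H4CK1, so over all 12 libraries the sums overlapped under both treatments. Their correlation over the 12 libraries was -0.8, the lowest within a component.

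Without H4CK1 and Z2T1, 4 members were called in Z2CK vs. H4CK (1.93% of all unigenes tested), 2 in Z2T vs. H4T (1.73%) and 5 over both treatments (2.38%). Each of these counts includes DN41937_c0_g3. Besides the members above, DN33273_c2_g4 was called higher in Z2. It had 1800.2 and 1741 FPKM in Z2T2 and Z2T3, against 455, 483 and 412 FPKM in H4T, and 2393, 1574 and 1649 FPKM in Z2CK, against 410.3 and 373 FPKM in H4CK2 and H4CK3. Z2T1 had 295 FPKM and H4CK1 1981 FPKM, each at the level of the other cultivar. Its log2 difference over both treatments was 2.10 (SE 0.14, limma adjusted p = 1.82e-05), kept in all 10 fits without a further library, and 1.28 (SE 0.53, adjusted p = 0.224) with all 12 libraries.

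DN41131_c1_g2 was called higher in Z2CK vs. H4CK, with a log2 difference of 2.79 (SE 0.28, limma adjusted p = 0.000411), and DN36924_c0_g1 was called higher over both treatments, with 2.14 (SE 0.24, adjusted p = 0.000385). These calls were kept in 2 and 1 of the 10 fits that left out a further library, and over all 12 libraries neither difference passed the test (limma adjusted p = 0.722 and 0.967). DN41220_c0_g1 was called lower over both treatments, with -2.34 (SE 0.31, adjusted p = 0.000952). It had 196 and 122 FPKM in Z2T2 and Z2T3, against 1605, 1319 and 1347 FPKM in H4T, and 343, 462 and 1092 FPKM in Z2CK, against 1386 and 1762 FPKM in H4CK2 and H4CK3, with 2137 FPKM in Z2T1 and 207 FPKM in H4CK1. Its call was kept in 1 of the 10 fits, the fit without Z2CK3, whose value was the nearest of the Z2CK libraries to those of H4. Over all 12 libraries the difference was -1.22 (SE 0.75, limma adjusted p = 0.430). Its call was lost under 1 of the 3 scalings.

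Further members with large cultivar differences in the 10 libraries were not called. DN40425_c0_g4, which is 13th in the list, had 8393 and 4093 FPKM in Z2T2 and Z2T3, against 2753, 4725 and 5144 FPKM in H4T, and 2681, 2509 and 4004 FPKM in Z2CK, against 197 and 546 FPKM in H4CK2 and H4CK3, with 303 FPKM in Z2T1 and 8936 FPKM in H4CK1. Z2T and H4T overlapped, and Z2CK was above H4CK2 and H4CK3. In Z2CK vs. H4CK its log2 difference was 3.19 (SE 0.51, limma adjusted p = 0.00392) in the 10 libraries and 1.60 (SE 1.41, adjusted p = 0.633) in all 12.

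DN35589_c1_g1, which is 16th, had 1051 and 369 FPKM in Z2T2 and Z2T3, against 2298, 1339.6 and 1636 FPKM in H4T, and 1224, 1152 and 835 FPKM in Z2CK, against 11601 and 3498 FPKM in H4CK2 and H4CK3, with 5291 FPKM in Z2T1 and 924 FPKM in H4CK1. Its log2 difference over both treatments was -2.03 (SE 0.40, limma adjusted p = 0.00717) in the 10 libraries and -1.05 (adjusted p = 0.483) in all 12. It was thus lower in Z2 under both treatments without overlap in the 10 libraries.

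DN33651_c0_g1 had 2004 and 1386 FPKM in Z2T2 and Z2T3, against 558, 485 and 663 FPKM in H4T, and 3237, 2608 and 1999 FPKM in Z2CK, against 598 and 811 FPKM in H4CK2 and H4CK3, with 803 FPKM in Z2T1 and 2225 FPKM in H4CK1. In Z2T vs. H4T its log2 difference was 1.56 (SE 0.27, limma adjusted p = 0.0067) in the 10 libraries and 1.21 (adjusted p = 0.327) in all 12. Over both treatments it was 1.72 (SE 0.19, limma adjusted p = 0.000377) in the 10 libraries, short of the fold change threshold only, and 1.27 (adjusted p = 0.0854) in all 12. DN33857_c2_g3, with levels between 305 FPKM in Z2T1 and 2749 FPKM in H4CK1, had a difference of 1.18 in Z2T vs. H4T (SE 0.49, limma adjusted p = 0.154) in the 10 libraries and of 0.29 (adjusted p = 0.914) in all 12.

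Across the members, the cultivar differences in Z2T vs. H4T and Z2CK vs. H4CK, which share no library, had a Pearson correlation of 0.348 with all 12 libraries and 0.65 without H4CK1 and Z2T1, over the 99 members other than DN41937_c0_g3, with the same sign in 58 and 69. Over all unigenes tested the correlations were 0.308 (same sign in 54.3%) and 0.58 (61.8%). These keep the 160 and 167 unigenes that were present in the other libraries of 1 cultivar and at 0 in those of the other. They also include low unigenes, so they are not matched to the values over the 99 members. With DN41937_c0_g3 the members' values were 0.677 and 0.849, so this member alone raised them. Without the 2 libraries, 15 members were higher in Z2 without overlap under both treatments (12.3% of all unigenes) and 13 were lower (9.72%). DN39488_c3_g2 and DN35241_c0_g1 were lower in Z2CK and higher in Z2T (1.53%), and 0 members had the reverse pattern (2.62%). In Z2CK vs. H4CK alone 35 were higher (27.2%) and 25 lower (18.7%), and in Z2T vs. H4T 21 were higher (24.8%) and 22 lower (24.0%).

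**Figure D5:**
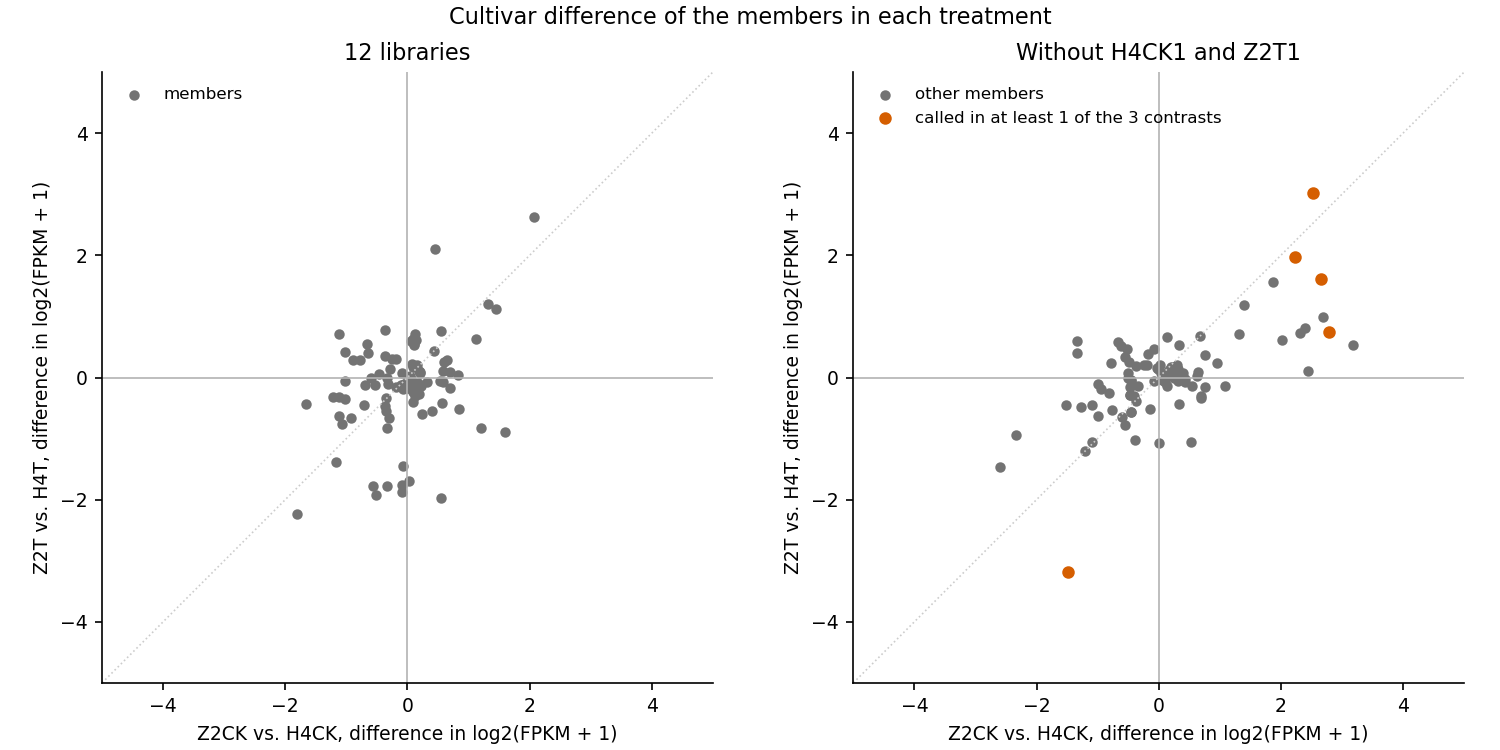
Difference in log2(FPKM + 1) of 99 members in Z2T vs. H4T (vertical axis) against Z2CK vs. H4CK (horizontal axis), with all 12 libraries (left) and without H4CK1 and Z2T1 (right), where the members called in at least 1 of the 3 cultivar contrasts are orange. Each point is a member, the dotted line marks equal differences, and DN41937_c0_g3, listed at 0 in some libraries, is left out. The correlation across these members is 0.348 on the left and 0.65 on the right.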

How the data were processed

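The FPKM values were used as deposited by the authors, as a table of Trinity unigenes by 12 libraries with 2 decimals. How this table was assembled, aligned and quantified was not given in the sources used here, since the methods of the study describe reads aligned to the ramie genome, a different set of features. No read counts were used, so the depth behind each value is unknown. The members and lists were chosen with earlier results of these data known. Values were tested as log2(FPKM + 1), a scale that understates changes of low unigenes, with limma 3.58.1 in R 4.3.3 on all unigenes with 1 FPKM or more in 3 or more libraries. Calls needed a Benjamini-Hochberg adjusted p below 0.001 and an absolute log2 value of 2. Shares of the FPKM total were compared by exact permutation tests. The fits were also run on simulated data with independent normal noise and no library at odds with its group. That run cannot decide how the fits behave on these libraries, and nothing is drawn from it.

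Named were the 10 highest members, the 5 next to each side of the list's edge, members sharing a component, the 5 widest and 5 narrowest ratios of group means, the 5 with the largest shifts in rank, and the 5 largest differences each way per comparison without H4CK1 and Z2T1. Other members named for groups that did not overlap, for an interaction or for lying outside the list by median were chosen after their values were seen. Alternatives covered the pseudocount, filter, thresholds, scaling, prior variance, replicate block, library weights, the choice of members, and leaving out libraries. Scalings and a log2 threshold of 1 for the 10 libraries, and fits leaving out 1 further library, were added after seeing the data.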

Additional observations from a re-analysis of the deposited data

How the results depend on the processing

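With all 12 libraries, the 0 members called in each of the 7 contrasts stayed at 0 in limma under the other pseudocounts, filters, fold threshold, scalings, prior variance and choices of members, and with the replicate block. No pairing by replicate number was seen, as 1 of 18 same-numbered pairs had a correlation of deviations above 0.1 (range -0.855 to 0.131). Only 2 of 12 libraries were closest to their own number. The deviations were taken from group means that include H4CK1 and Z2T1, which had -0.855 with each other, so this check cannot decide on a pairing in their groups. The replicate block gave 0 members in every contrast. An adjusted p threshold of 0.05 gave 1 member each for water culture over both cultivars (0.264% of all unigenes tested), Z2T vs. H4T (0.21%) and Z2 vs. H4 (0.195%). Array weights gave 8 for water culture (2.31%), 1 in Z2CK vs. H4CK (0.0507%), 2 in Z2T vs. H4T (1.94%) and 2 in Z2 vs. H4 (1.99%). The counts of 2 are near the background and include DN41937_c0_g3, so they are no result about the members.

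Without H4CK1 and Z2T1, members called numbered 6 in H4T vs. H4CK (0.937% of all unigenes tested), 2 in Z2T vs. Z2CK (1.28%) and 10 for water culture (2.6%). They numbered 4 in Z2CK vs. H4CK (1.93%), 2 in Z2T vs. H4T (1.73%) and 5 in Z2 vs. H4 (2.38%), and these cultivar counts include DN41937_c0_g3. With a threshold of 0.05 the 6 counts were 14 (4.25%), 10 (5.44%), 13 (4.36%), 9 (4.21%), 3 (4.0%) and 6 (3.15%) in that order. With a log2 threshold of 1, chosen after seeing the data, they were 6, 3, 13, 5, 3 and 7 (water culture adds DN33003_c3_g1, DN41899_c4_g1 and DN41899_c4_g2). They were 6, 1, 9, 4, 2 and 4 after quantile normalization, 6, 1, 10, 4, 3 and 5 under median-of-ratios scaling, and 6, 2, 10, 4, 2 and 5 as TPM. Counts in this paragraph without a share of all unigenes show only how the calls moved. Leaving out 1 library gave 0 throughout from the 12, and from the 10 gave 0 to 11, 0 to 8, 5 to 12, 1 to 4, 2 to 3 and 3 to 4. Scaling moved the median of all unigenes by over 0.1 on the log2 scale in 5 cases: without the 2 libraries by -0.12 (median-of-ratios) and -0.14 (quantile) in H4T vs. H4CK and by -0.12 (quantile) for water culture, and by 0.14 for the interaction (median-of-ratios) with 12 and with 10 libraries. The member median in Z2CK vs. H4CK was -0.05 with median-of-ratios scaling, against 0.03 unscaled. The cause of these moves was not tested.

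The share of the own 10 highest, in place of 100, was -0.90 percentage points for Z2T minus Z2CK, a reversed direction. Leaving out 1 library gave ranges of the own 100 differences of -1.47 to 0.46 for H4T minus H4CK, -0.63 to 1.56 for Z2T minus Z2CK, -0.59 to 0.53 for water culture, -2.47 to -0.25 for Z2CK minus H4CK, -0.66 to 0.013 for Z2T minus H4T and -1.44 to -0.33 for Z2 minus H4. The members' share ranged over 18.9 to 19.5% in Z2T, 17.8 to 19.2% in Z2CK, 20.2 to 20.7% in H4T and 19.5 to 20.9% in H4CK, and members shared by all 4 groups over 50 to 60. FPKM values without counts limit what can be said of counting error.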
